A study of Mus musculus with 8 samples.

Results

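The subunit genes of respiratory complexes II to V were examined in multipotent progenitors, blood-forming cells just below the stem cell, sorted from mouse bone marrow. Members were taken by gene symbol from the deposited annotated table: nuclear symbols equal to Sdha, Sdhb, Sdhc or Sdhd or beginning with Uqcr, Cox4 to Cox8 or Atp5, and the mitochondrially encoded CYTB, COX1, COX2, COX3, ATP6 and ATP8. They numbered 53 of the 30918 genes measured, 49 nuclear and 4 mitochondrially encoded. The nuclear genes comprised 4 of complex II, 8 of complex III, 18 of complex IV and 19 of complex V, and 2 of the last carried pseudogene symbols. COX3 and ATP6 matched no symbol and were not analysed here. The symbol rule also takes in Cox7a2l, a factor that joins complexes into supercomplexes, and Atp5s and Atp5sl, which are not core subunits of the enzyme. RefSeq lists Atp5s as Dmac2l and Atp5sl as Dmac2, and both are counted under complex V by the older symbol alone.

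The electron transport chain passes electrons from succinate (complex II, succinate dehydrogenase) through ubiquinol and cytochrome c (complex III, the bc1 complex) to oxygen (complex IV, cytochrome c oxidase). Complexes III and IV pump protons, and complex V, the ATP synthase, makes ATP as the protons flow back. Complex II is encoded by nuclear genes alone, whereas the others also need products of the mitochondrial genome. Blood stem cells are known for relying on glycolysis, with respiration rising as their progeny divide and differentiate.

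The study compared 4 Elektra samples with 4 wild-type samples. Elektra mice carried 2 copies of a Slfn2 allele described as loss of function (Slfn2 elektra/elektra), and the controls were littermates homozygous for the wildtype allele. Both genotypes had a C57Bl/6 background and were untreated and at steady state, and the labels give no age. The allele is in the germline, so the marrow surrounding the progenitors was mutant as well. Cells were enriched for c-kit and sorted as LSK CD48- CD150- (LSK stands for lineage-negative, Sca-1-positive, c-Kit-positive). The extraction protocol pools marrow of 2 mice in a sample, while the series text counts 4 mice of each genotype. In RNA from a whole sorted population, fewer cells of a type and less RNA per cell cannot be told apart.

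Values are log2 intensities from 1 array per sample, and the number of arrays limits the precision. They ran from 0.25 to 11.41, with array medians between 2.08 and 2.18. Elektra replicate 2 stood apart: its upper quartile was 3.72 against 3.90 to 3.95 in the other arrays, and its first principal component was 58.2 against -15.2 to -2.40. Slfn2 was 2.10 ± 0.0820 (Elektra) against 2.08 ± 0.31 (wild type; SD, n = 4), a level that does not check the labels, because elektra changes the coding sequence. Kit and Ly6a (Sca-1), which the gate selects for, were 8.97 ± 0.13 (Elektra) against 9.16 ± 0.0875 (wild type) and 9.27 ± 0.16 (Elektra) against 8.91 ± 0.36 (wild type). Of the genes in 8 lists of sort and other-cell markers, 0 passed limma's adjusted p, as did 0.00% of all 30918 genes. With no gene passing, that count cannot compare the cell content of the genotypes. The neutrophil list had a mean level of 2.19 to 3.65 over the Elektra arrays and 2.10 to 4.20 over the wild-type arrays, and the erythroid list 2.79 to 3.73 and 2.93 to 3.63.

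No subunit gene of complexes II to V passed the test between Elektra and wild-type progenitors. In limma's fit, 0 of 53 members passed an adjusted p of 0.05, as did 0.00% of the 30918 genes, and the lowest adjusted p of a member was 0.884. At an unadjusted p under 0.05, 1 nuclear member (Cox4i2) was higher and 0 were lower, where 2.63% of all genes were higher and 2.87% lower. The 4 Elektra values lay wholly above the 4 wild-type values for 0 members and wholly below for 0, against 1.86% and 1.37% of all genes. In the authors' deposited table, 0 of 53 members had a p-value under 0.05, beside 5.08% of all genes.

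The measured differences were small. Over the nuclear members the log2 change (Elektra minus wild type) ran from -0.16 to 0.34 with a median of 0.0476, against a median of 0.0132 over all genes. It was above 0 for 29 of 49, beside 53.9% of all genes, and for 26 of the 43 above the median level, beside 45.7% of all genes above it. After quantile normalization it was above 0 for 35 of 49. After centring each array on its median it was above 0 for 26 of 49. The median change was then 0.0071, against a median of -0.0273 over all genes. Leaving out Elektra replicate 3 brought the median to 0.0191, and leaving out wild type replicate 1 to 0.0267. Leaving out Elektra replicate 2 brought it to 0.11. In that array the median deviation from the gene mean was -0.1094 over all genes above the median level. Over the nuclear members above that level it was -0.1028.

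For 44 of 49 nuclear members the 95% interval kept within -0.5 and 0.5 on the log2 scale, against 71.0% of all genes. Among those above the median level it did so for 38 of 43, against 57.8% of all such genes. All 4 mitochondrially encoded members were inside. The 5 nuclear members whose interval reached past 0.5 in one direction or the other were Cox4i2, Cox5b, Cox7b, Cox7c and Atp5s. The median standard error was 0.12 over the nuclear members, 0.0947 over the mitochondrially encoded ones and 0.13 over all genes.

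**Figure D1:**
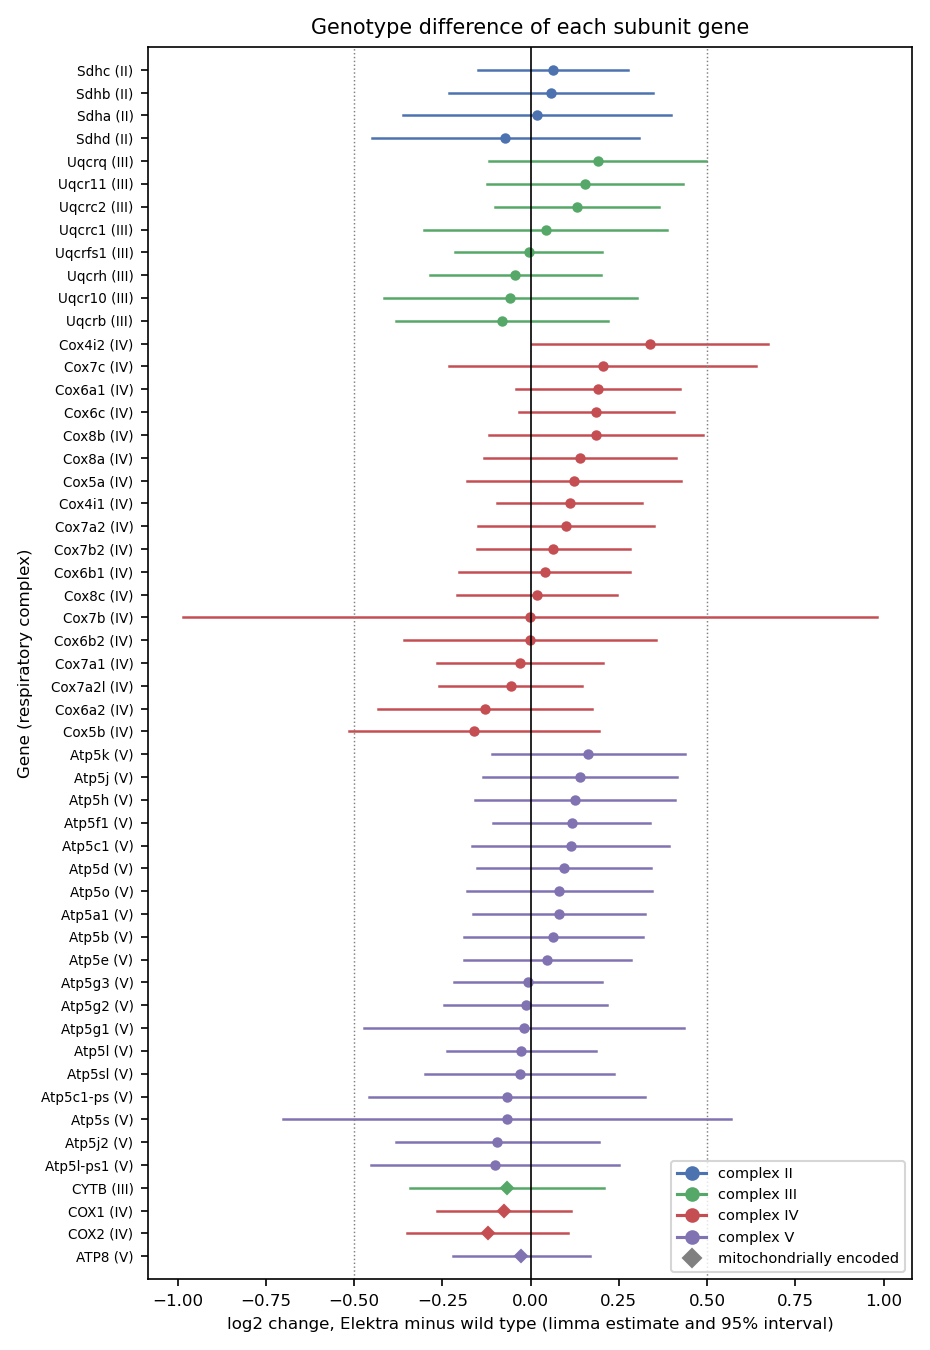
Log2 change (Elektra minus wild type, horizontal axis) of each of the 53 genes, with the limma estimate as a point and its 95% interval as a line, by complex. Of all the intervals that of Cox4i2 alone stays above 0 (0.0038 to 0.67), and Cox7b has the widest (-0.98 to 0.98).

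Complex II feeds electrons from succinate into the chain and also serves the citric acid cycle. Of its 4 genes 3 had a log2 change above 0, and the median was 0.0386. Sdha, the flavoprotein that oxidises succinate, was 7.31, 7.36, 7.94 and 7.68 in the Elektra arrays and 7.25, 7.51, 7.85 and 7.60 in the wild-type arrays. The groups covered nearly the same range, with replicate 3 highest in both. The change was 0.0182 (SE 0.17; limma adjusted p = 0.991), and it was -0.11 without Elektra replicate 3.

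Sdhb, the iron-sulfur subunit, was 5.40, 5.20, 5.67 and 5.61 in the Elektra arrays and 5.23, 5.47, 5.35 and 5.59 in the wild-type arrays. The values interleaved, with Elektra replicate 2 lowest and Elektra replicate 3 highest (change 0.0589, SE 0.13). The membrane anchor gene Sdhc was 3.25 ± 0.11 (Elektra) against 3.18 ± 0.0838 (wild type) (SD, n = 4; change 0.0637, SE 0.0955). Sdhd, the other anchor, was 4.67, 4.02, 4.78 and 4.75 in the Elektra arrays and 4.59, 4.48, 4.63 and 4.81 in the wild-type arrays. Elektra replicate 2 was far below every other array, and the change of -0.0717 (SE 0.17) became 0.11 without it.

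Complex III oxidises ubiquinol and reduces cytochrome c. Its 8 nuclear genes were evenly divided, 4 with a log2 change above 0 and 4 below (median 0.0185). Uqcrq, a small subunit, was 4.49, 4.40, 5.05 and 4.67 in the Elektra arrays and 4.39, 4.47, 4.51 and 4.47 in the wild-type arrays. Elektra replicates 3 and 4 lay above all controls and Elektra replicates 1 and 2 among them (change 0.19, SE 0.14; limma adjusted p = 0.894). Without Elektra replicate 3 the change was 0.0584. Uqcrc2, a core protein, was 6.83, 6.77, 7.01 and 6.94 in the Elektra arrays and 6.56, 6.76, 6.84 and 6.86 in the wild-type arrays. The groups overlapped, with wild type replicate 1 lowest (change 0.13, SE 0.10; limma adjusted p = 0.896), and without that array the change was 0.0673.

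The small subunit gene Uqcr11 was 4.46, 4.70, 4.89 and 4.79 in the Elektra arrays and 4.44, 4.49, 4.80 and 4.49 in the wild-type arrays. Wild type replicate 3 stood above the other controls, within the Elektra range (change 0.15, SE 0.12). Leaving out single arrays moved the change to between 0.0949 (Elektra replicate 3) and 0.24 (Elektra replicate 1 or wild type replicate 3). Of the genes with a change below 0, Uqcrb was 1.62 ± 0.19 (Elektra) against 1.70 ± 0.21 (wild type) and Uqcrh, the hinge protein, was 4.42 ± 0.0938 (Elektra) against 4.46 ± 0.17 (wild type; SD, n = 4). The remaining log2 changes were 0.0424 for the core protein gene Uqcrc1, -0.0053 for the Rieske iron-sulfur protein gene Uqcrfs1 and -0.0574 for Uqcr10.

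Complex IV reduces oxygen to water, its nuclear subunits surrounding a core made by mitochondrial genes. Of its 18 nuclear genes 12 had a log2 change above 0 (median 0.0831). Cox6c was 7.23, 7.25, 7.46 and 7.35 in the Elektra arrays and 6.98, 7.16, 7.25 and 7.15 in the wild-type arrays. Wild type replicate 3 lay within the Elektra range and the other 3 controls below it (change 0.19, SE 0.0990; limma adjusted p = 0.885). Cox6a1, the common form of subunit VIa, was 6.69, 6.66, 6.84 and 6.63 in the Elektra arrays and 6.45, 6.36, 6.71 and 6.54 in the wild-type arrays. Here too wild type replicate 3 was the single control within the Elektra range (change 0.19, SE 0.10; limma adjusted p = 0.885).

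Cox4i1, the common form of subunit IV, was 7.94 ± 0.11 (Elektra) against 7.83 ± 0.0616 (wild type; SD, n = 4). Cox8a was 7.08 ± 0.0552 (Elektra) against 6.94 ± 0.23 (wild type), with wild type replicate 1 at 6.60 below all other arrays. Cox7a2 was 7.87 ± 0.16 (Elektra) against 7.77 ± 0.12 (wild type), and Cox6b1, which lies on the side where cytochrome c docks, was 5.09 ± 0.15 (Elektra) against 5.05 ± 0.12 (wild type). All of these groups overlapped. Cox5a had a log2 change of 0.12 (SE 0.14). Cox5b had a log2 change of -0.16 (SE 0.16), with Elektra replicate 2 at 3.37 against 3.89 to 4.10 in the other Elektra arrays. Without Elektra replicate 2 its change was -0.0067. Leaving out wild type replicate 1 gave -0.10, and leaving out Elektra replicate 4 gave -0.25. The supercomplex factor gene Cox7a2l was 5.26 ± 0.10 (Elektra) against 5.32 ± 0.0468 (wild type).

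Several complex IV subunits have a second form used mainly in certain tissues, among them Cox4i2 (lung), Cox6a2, Cox7a1 and Cox8b (heart and muscle) and Cox6b2, Cox7b2 and Cox8c (testis). These 7 were grouped after their values had been seen. Their median log2 change was 0.0190, with 4 above 0, and that of the other 11 nuclear genes was 0.11, with 8 above 0. Cox4i2 was 2.79, 2.33, 2.28 and 2.31 in the Elektra arrays and 1.92, 1.99, 2.41 and 2.04 in the wild-type arrays. Elektra replicate 1 was the highest, and wild type replicate 3 lay within the Elektra range. The change of 0.34 (SE 0.15) had an unadjusted limma p of 0.0479 and an adjusted p of 0.884, and it was 0.22 without Elektra replicate 1.

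Of the muscle forms, Cox8b was 1.84 ± 0.23 (Elektra) against 1.65 ± 0.17 (wild type), Cox6a2 was 2.43 ± 0.11 (Elektra) against 2.56 ± 0.26 (wild type) and Cox7a1 was 2.39 ± 0.16 (Elektra) against 2.42 ± 0.0869 (wild type; SD, n = 4). Of the testis forms, Cox6b2 was 4.84 ± 0.32 (Elektra) against 4.84 ± 0.17 (wild type), Cox8c was 1.98 ± 0.15 (Elektra) against 1.96 ± 0.0577 (wild type) and Cox7b2 was 0.94 ± 0.10 (Elektra) against 0.88 ± 0.10 (wild type). Every one of these groups overlapped. Probe sets differ in how strongly they bind, so these levels are not set against those of the common forms.

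Cox7b, an X-linked subunit gene, varied most of all members. It was 3.56, 2.21, 3.69 and 2.93 in the Elektra arrays and 4.37, 3.06, 2.46 and 2.50 in the wild-type arrays. The highest value and the 2 next to the lowest were in wild type, and the group means were alike (change -0.0013, SE 0.44). Its range over the 8 arrays was 2.16, followed by 1.33 for Atp5s and 1.02 for Cox7c. For Cox7c wild type replicate 3 was low, at 3.59 against 4.11 to 4.50 in the other controls, and the log2 change was 0.20 (SE 0.20). The median within-group SD was 0.17 over the nuclear members and 0.19 over all genes.

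Complex V makes ATP with a catalytic head, a membrane rotor and a stalk that holds the head still. Of its 19 nuclear genes 10 had a log2 change above 0 and 9 below (median 0.0476). In the head, the catalytic beta subunit gene Atp5b was 9.08, 8.85, 9.16 and 9.16 in the Elektra arrays and 8.84, 8.94, 9.20 and 9.01 in the wild-type arrays. The groups overlapped throughout (change 0.0638, SE 0.11). The alpha subunit gene Atp5a1 was 8.34 ± 0.14 (Elektra) against 8.26 ± 0.14 (wild type; SD, n = 4). The log2 changes of the gamma, delta and epsilon subunit genes were 0.11 for Atp5c1, 0.0950 for Atp5d and 0.0476 for Atp5e.

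In the stalk, Atp5f1 (subunit b) was 6.85 ± 0.12 (Elektra) against 6.74 ± 0.10 (wild type) and Atp5j (coupling factor 6) was 3.52 ± 0.22 (Elektra) against 3.38 ± 0.10 (wild type). Atp5o, which ties the stalk to the head, had a log2 change of 0.0819 (SE 0.12), and Atp5h (subunit d) of 0.13 (SE 0.13). Atp5k, the membrane subunit e found where ATP synthases pair, was 5.91, 5.55, 5.95 and 5.63 in the Elektra arrays and 5.39, 5.71, 5.65 and 5.62 in the wild-type arrays. Elektra replicates 1 and 3 lay above every control, and Elektra replicates 2 and 4 among the controls (change 0.16, SE 0.12; limma adjusted p = 0.896). The change was 0.10 without Elektra replicate 3 and 0.0976 without wild type replicate 1. Atp5l, subunit g, was 9.76 ± 0.0740 (Elektra) against 9.79 ± 0.11 (wild type), and Atp5j2, subunit f, was 1.93 ± 0.0840 (Elektra) against 2.02 ± 0.25 (wild type). Atp5s had a log2 change of -0.0676 (SE 0.28), and the 2 pseudogene symbols had changes of -0.0660 and -0.10.

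The ring of the rotor is built from a protein that Atp5g1, Atp5g2 and Atp5g3 all encode, with different import sequences and the same mature form. Atp5g1 was 2.25, 3.07, 2.73 and 2.78 in the Elektra arrays and 2.98, 2.93, 2.78 and 2.22 in the wild-type arrays. One array of each genotype, Elektra replicate 1 and wild type replicate 4, lay well below the rest. Atp5g2 was 6.78 ± 0.13 (Elektra) against 6.79 ± 0.11 (wild type), and Atp5g3 was 5.42 ± 0.12 (Elektra) against 5.43 ± 0.0579 (wild type; SD, n = 4). The log2 changes were -0.0196 (SE 0.20), -0.0134 (SE 0.10) and -0.0075 (SE 0.0937), and those of Atp5g2 (0.0330) and Atp5g3 (0.0612) turned in sign after quantile normalization.

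The mitochondrially encoded members all had a log2 change below 0, with a median of -0.0715, and 0 of 4 passed. Among all genes above the median level, 45.7% had a change above 0 and the median was -0.0189. The 4 members were read from the same arrays and are not replicates. Their levels stood between the 99.80 and 99.97 percentiles of all genes. COX2, which takes electrons from cytochrome c, was 9.64, 9.58, 9.78 and 9.55 in the Elektra arrays and 9.69, 9.61, 9.91 and 9.82 in the wild-type arrays. Wild type replicates 3 and 4 lay above every Elektra array and the other 2 controls within the Elektra range (change -0.12, SE 0.10; limma adjusted p = 0.901). Without wild type replicate 3 the change was -0.0696. COX1, the catalytic subunit of complex IV, was 10.70, 10.75, 10.84 and 10.73 in the Elektra arrays and 10.84, 10.76, 10.84 and 10.88 in the wild-type arrays. Elektra replicate 3 was level with the controls and the other 3 Elektra arrays lay below all of them (change -0.0753, SE 0.0849).

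CYTB, the complex III subunit that handles ubiquinol, was 9.87 ± 0.17 (Elektra) against 9.94 ± 0.17 (wild type), and ATP8, a membrane subunit of complex V, was 9.79 ± 0.0714 (Elektra) against 9.81 ± 0.0617 (wild type; SD, n = 4). Both pairs of groups overlapped. Leaving out Elektra replicate 3 brought the median of the 4 genes to -0.13, leaving out wild type replicate 2 to -0.12 and leaving out wild type replicate 3 to -0.0466. In each case 4 of 4 were below 0, over sets that share most of their arrays.

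The members' levels differed between arrays of the same genotype. Relative to each gene's mean over the 8 arrays, the median nuclear member stood at 0.0089, -0.0858, 0.13 and 0.0677 on the log2 scale in Elektra replicates 1 to 4 and at -0.14, -0.0240, 0.0193 and 0.0021 in wild type replicates 1 to 4. Elektra replicate 3 was the highest and wild type replicate 1 the lowest, with the genotypes overlapping between them. The genotype means were 0.0309 ± 0.0928 and -0.0362 ± 0.0728 (SD, n = 4). Elektra replicate 3 was the highest of the 8 arrays for 19 of 49 nuclear members (38.8%), against 15.1% of all genes above the median level and 11.9% of all genes. Wild type replicate 1 was the lowest for 18 (36.7%), against 14.3% of genes above the median level and 13.5% of all genes. Elektra replicate 2 was the lowest for 12 (24.5%), against 31.7% of genes above the median level and 20.1% of all genes. The mean levels of the erythroid, sort, B cell and macrophage lists were also highest in Elektra replicate 3, at 3.73, 6.70, 3.15 and 2.60. Those of the neutrophil, T and NK cell, megakaryocyte and muscle lists were highest in other arrays. The erythroid list mean was lowest in Elektra replicate 1, at 2.79. The part of these lists in the members' levels was not tested.

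**Figure D2:**
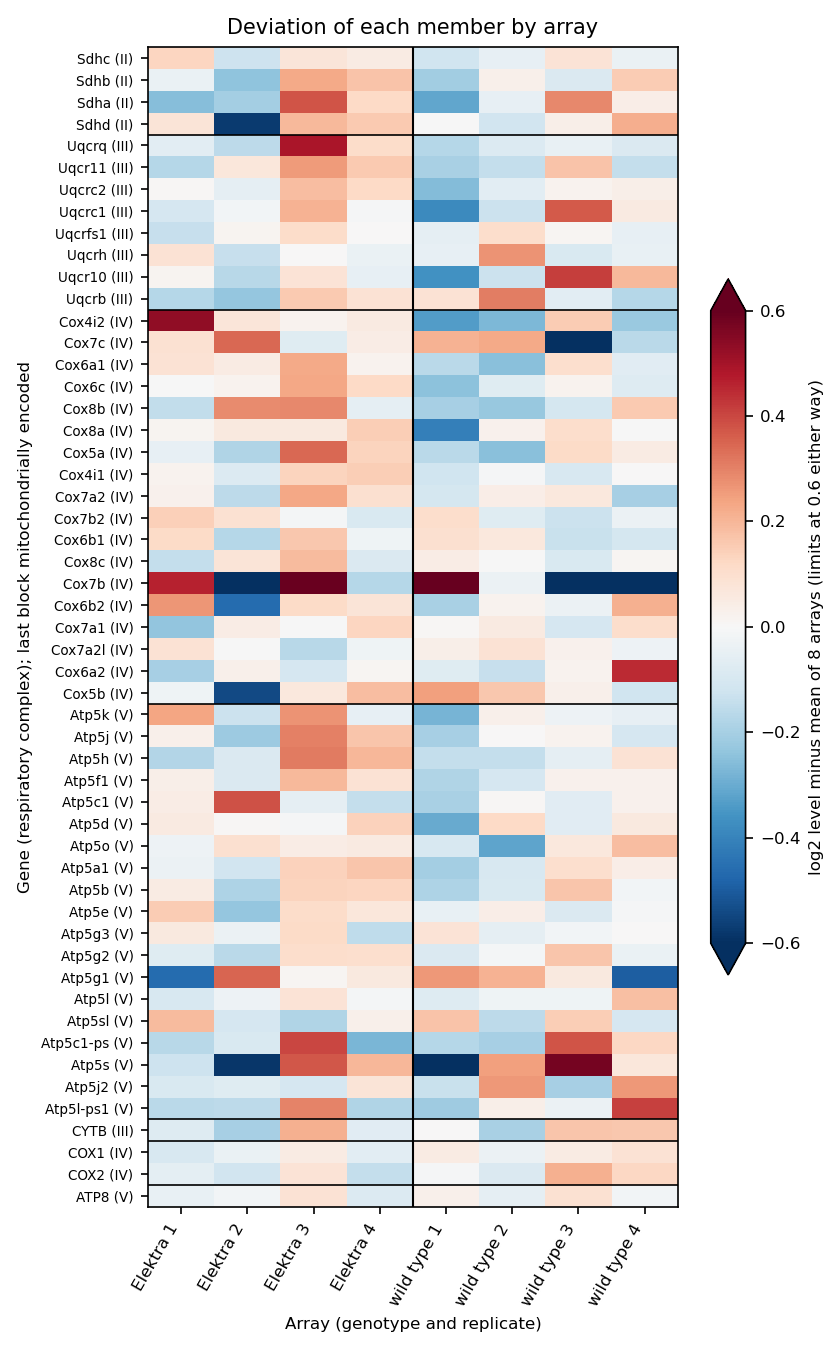
Each of the 53 genes (vertical axis, by complex) in each of the 8 arrays (horizontal axis), coloured by its log2 level minus its own mean over the arrays. In Elektra replicate 3, 40 of 49 nuclear genes were above their mean, and in wild type replicate 1, 12 of 49 were.

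The mitochondrially encoded genes followed another order of arrays. Their median stood at -0.0701, -0.0781, 0.0835 and -0.0737 on the log2 scale in Elektra replicates 1 to 4 and at 0.0174, -0.0702, 0.13 and 0.10 in wild type replicates 1 to 4. Wild type replicates 1, 3 and 4 and Elektra replicate 3 were above 0. The nuclear median minus the mitochondrial one was 0.0790, -0.0077, 0.0493 and 0.14 in Elektra and -0.16, 0.0462, -0.11 and -0.10 in wild type. Elektra replicates 1, 3 and 4 lay above all controls, replicate 3 (0.0493) only just above wild type replicate 2 (0.0462). Elektra replicate 2 lay below wild type replicate 2. The group means were 0.0655 ± 0.0621 and -0.0809 ± 0.0886 (SD, n = 4), given with no test. This difference was not among the results planned in advance.

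**Figure D3:**
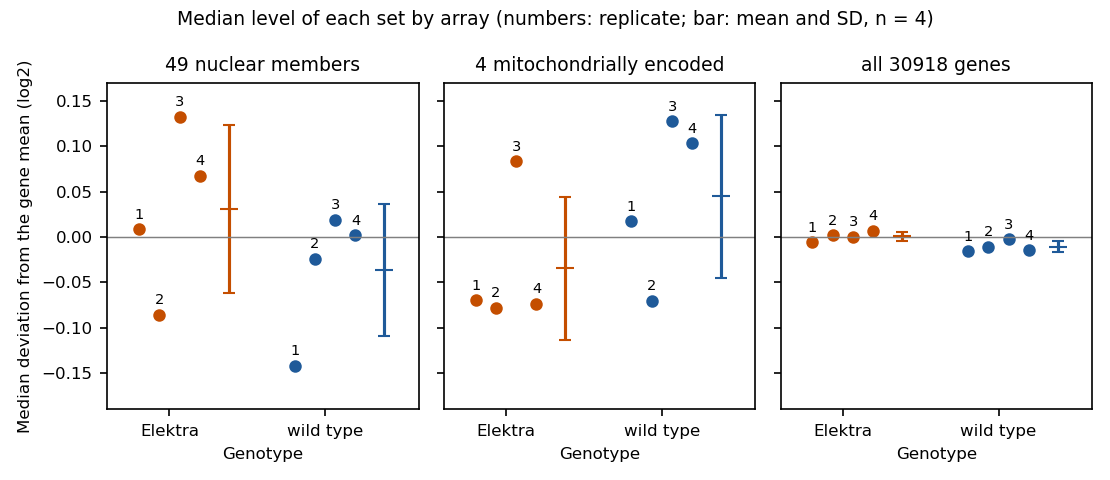
Median deviation from the gene mean (log2, vertical axis) in each array for sets of genes, by genotype, with the mean and SD (n = 4). The nuclear medians run from -0.14 to 0.13 and overlap between genotypes, and in the mitochondrially encoded set Elektra replicate 3 (0.0835) stands above the other Elektra arrays (-0.0781 to -0.0701).

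For some members the locus behind the signal is in doubt. The 53 genes had 57 probe sets. Identifiers of this array largely follow genome order, and for 53 of the 57 most of the nearest 10 named probe sets by identifier belonged to genes of the member's own chromosome (RefSeq, GRCm38.p6). The 4 exceptions were 1 probe set each of Cox6c, Atp5h, Atp5g2 and ATP8, the members with more than 1 probe set. For the 3 nuclear genes the exception was the brighter one, whose values are given above. Whether these probe sets read the named gene or a near-identical copy was not tested.

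Cox6c lies on chromosome 15, and 8 of the 10 flanks of its brighter probe set were on chromosome 12. The identifier of that probe set comes after those of the mitochondrially encoded and X-linked members. It lies far from those of the chromosome 12 members Atp5s and Cox8c, so its flanks do not place it on a chromosome. Its other probe set, with flanks on chromosome 15, was 3.47, 3.45, 3.75 and 3.75 in the Elektra arrays and 3.48, 3.76, 3.63 and 3.50 in the wild-type arrays. These groups overlapped fully, and the difference was 0.0122 against 0.19 for the brighter one. For Atp5h, a gene of chromosome 11, the brighter probe set had its flanks on chromosome 15 and a difference of 0.13, and the other was 2.06 ± 0.35 (Elektra) against 2.13 ± 0.24 (wild type; SD, n = 4). For Atp5g2, of chromosome 15, the brighter had its flanks on chromosome 17, and the other was 5.69 ± 0.16 (Elektra) against 5.74 ± 0.11 (wild type). The dimmer ATP8 probe set, with 9 of 10 flanks on chromosome 1, was 9.24 ± 0.14 (Elektra) against 9.28 ± 0.11 (wild type). With the dimmest probe set of each gene the nuclear median change was 0.0398.

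**Figure D4:**
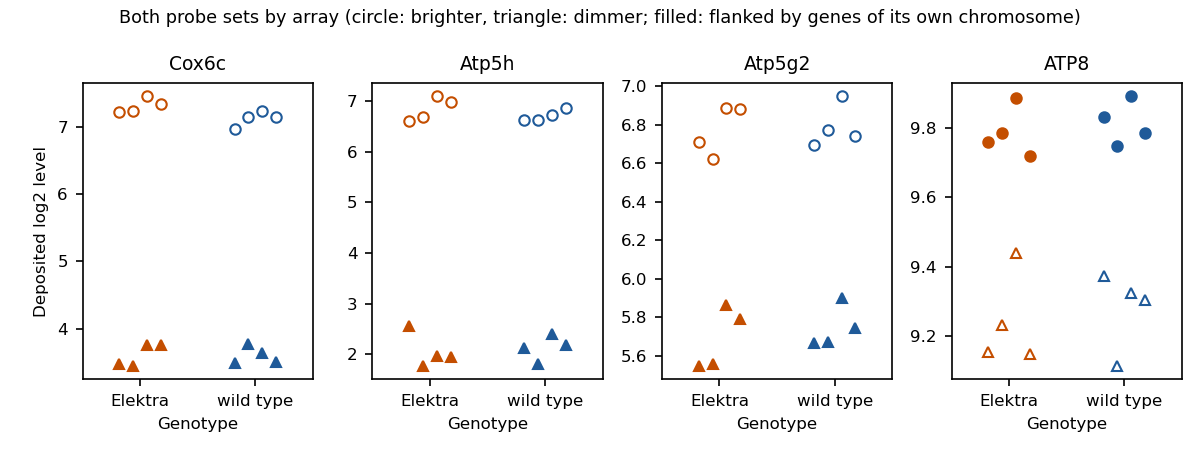
Deposited log2 level (vertical axis) in each array, by genotype, for both probe sets of the 4 members that have more than 1. For Cox6c the brighter set was 7.32 ± 0.11 (Elektra) against 7.13 ± 0.11 (wild type), and the dimmer 3.60 ± 0.17 (Elektra) against 3.59 ± 0.13 (wild type; SD, n = 4).

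Genes that build or regulate the complexes were read from the same fit. Of 70 such genes, Atp5s and Atp5sl among them though also members, 0 passed limma's adjusted p, as did 0.00% of all genes. Of the 70, 28 had a log2 change above 0 and 42 below, and the median was -0.0310. Of these 69 were above the median level, where 45.7% of all genes had a change above 0. At an unadjusted p under 0.05, 2 were higher and 0 lower, where 2.63% of all genes were higher and 2.87% lower, a share near that of the background. Those 2 were Coa3 and Fastkd5. Coa3, which acts on newly made COX1, was 4.89, 4.93, 4.72 and 5.15 in the Elektra arrays and 4.40, 4.31, 4.90 and 4.15 in the wild-type arrays. Wild type replicate 3 was the single control within the Elektra range (change 0.48, SE 0.16; limma adjusted p = 0.884). Fastkd5, which acts in the processing of mitochondrial transcripts, was 4.27, 4.05, 4.53 and 4.35 in the Elektra arrays and 3.57, 4.18, 4.09 and 3.13 in the wild-type arrays. Wild type replicates 2 and 3 lay within the Elektra range (change 0.56, SE 0.22; limma adjusted p = 0.884), and without wild type replicate 4 the change was 0.35.

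By list, 1 of 4 complex II assembly genes had a log2 change above 0, with -0.26 for Sdhaf1, -0.28 for Sdhaf2, which helps attach the flavin, and 0.19 for Sdhaf3. Of 6 for complex III 3 did, with -0.17 for Bcs1l, which inserts the Rieske protein, 0.14 for Uqcc3 and -0.26 for Ttc19. Of 23 for complex IV 10 did, with 0.24 for the insertase gene Cox18 and -0.31 for Cox16. Of 6 listed for complex V 3 did, with -0.36 and 0.21 for the chaperone genes Atpaf1 and Atpaf2. Atp5s and Atp5sl are in that list by their older symbols alone, and Atp5sl was at -0.0311. No gene of these lists passed the adjusted threshold.

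Of 8 subunits and carriers outside the symbol rule 6 had a log2 change above 0, with 0.18 for Higd2a, 0.13 for the ATP synthase inhibitor gene Atpif1 and -0.15 for the cytochrome c gene Cycs. Of 14 measured genes of mitochondrial DNA expression 4 did, with -0.26 for Mterf4 and -0.16 for Mterf3. Of 9 regulators of respiratory genes 1 did, the coactivator gene Pprc1 at 0.22 (SE 0.11). Creb1 was at -0.18, Gabpb1 at -0.11, Nrf1 at -0.16 (SE 0.20) and Gabpa at -0.0942 (SE 0.14), the last 2 named after their values were seen.

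Promoters of nuclear respiratory genes are known for sites of NRF1 and of ETS-family factors such as GABPA. Windows of 250 bases before to 50 after the start (RefSeq, GRCm38.p6) were matched for 37 of the 47 nuclear members without a pseudogene symbol. The NRF1 string, GCGCA and GCGC with any 1 base between them, on either strand, was in 10 of 37 (27.0%), against 5.19% of 27025 genes. The ETS string CCGGAAG was in 12 (32.4%), against 9.93%, and Atp5h, Atp5k, Cox6a1 and Sdhd held both. The YY1 string AAGATGGC was in 4 (10.8% against 3.19%), CCAAT in 21 (56.8% against 41.1%) and the GC box GGGCGG in 14 (37.8% against 38.2%). The other 2 of 7 strings overlap those of NRF1 or ETS: CATGCGC (21.6% against 4.41%) and ACTTCCGG (10.8% against 4.31%). Longer forms of the NRF1 string had been looked at too and are left out. A match describes letters and measures no binding in these cells.

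A few windows are shown to make these shared letters visible, those with the smallest unadjusted p among members holding the NRF1 or the ETS string. Cox6a1 is at chr5:115348909-115349208, Atp5k at chr5:108434350-108434649 and Uqcr11 at chr10:80406772-80407071, all on the minus strand. Each is written 5′ to 3′ along the gene, with capitals marking these NRF1 and ETS strings on either strand.
Cox6a1: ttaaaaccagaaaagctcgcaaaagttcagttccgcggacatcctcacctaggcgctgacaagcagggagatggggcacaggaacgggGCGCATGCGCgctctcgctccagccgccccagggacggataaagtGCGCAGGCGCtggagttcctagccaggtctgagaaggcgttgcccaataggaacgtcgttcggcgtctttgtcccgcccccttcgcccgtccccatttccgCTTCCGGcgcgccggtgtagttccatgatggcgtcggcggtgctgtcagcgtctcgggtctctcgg
Atp5k: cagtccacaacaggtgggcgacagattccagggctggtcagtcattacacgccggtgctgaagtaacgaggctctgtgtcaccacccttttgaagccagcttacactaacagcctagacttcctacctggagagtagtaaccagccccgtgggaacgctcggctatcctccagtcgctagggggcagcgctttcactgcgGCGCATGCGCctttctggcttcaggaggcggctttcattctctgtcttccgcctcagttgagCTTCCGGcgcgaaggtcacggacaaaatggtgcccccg
Uqcr11: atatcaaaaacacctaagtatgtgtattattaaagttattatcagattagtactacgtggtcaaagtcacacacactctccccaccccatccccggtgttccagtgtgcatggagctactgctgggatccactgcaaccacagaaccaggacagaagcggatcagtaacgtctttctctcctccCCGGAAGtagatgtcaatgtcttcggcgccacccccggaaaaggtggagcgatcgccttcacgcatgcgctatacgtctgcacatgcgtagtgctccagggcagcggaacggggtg
Cox6a1 and Atp5k hold both strings, and Uqcr11 holds the ETS string and also CATGCGC, which is not marked. Their log2 changes were 0.19 (SE 0.10), 0.16 (SE 0.12) and 0.15 (SE 0.12), none past the adjusted threshold.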

How the data were processed

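RNA of 4 Elektra and 4 wild-type samples was amplified and hybridised to 1 Affymetrix array each, per the labels' protocols. The deposited log2 values were made by the authors as RMA signals in Affymetrix's Expression Console 1.4, which the submitters' processing notes name; genome build and annotation are not given in the sources used here. The annotated table, with 1 symbol for 31872 of 34390 probe sets, was used, and the series value table was an alternative. The authors' deposited signed fold score was not used, and the authors' deposited p-values were counted.

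Each gene was its brightest probe set, with no filter on low values. The genotypes were compared with limma 3.58.1 (lmFit, then eBayes) under R 4.3.3. Tests were two-sided and p-values adjusted by Benjamini-Hochberg over 30918 genes. The procedure was tested on simulated data in which genes varied independently, with no shift shared by an array. That test does not show how small a change these arrays could detect. P-values set the difference between genotypes against the spread between these samples, which by the extraction protocol are pools of mice. Members and lists were chosen with earlier results of these data known. Genes named by rule were all of complex II and the mitochondrial genome, the 3 higher and 2 lower of each other complex with the smallest unadjusted p (pseudogene symbols left out), isoform families, and up to 3 of each pathway list; other members are given to account for all. Fastkd4 and Igkc matched no symbol. Alternatives were the other table, quantile normalization, median centring, a filter on dim genes, other probe sets, a trended robust prior, array weights, a replicate block, a looser threshold and leaving out each array.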

Additional observations from a re-analysis of the deposited data

Results flagged for a closer look

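In Dixon's test of 120 groups of 4 arrays, 7 held an array set apart from the other 3, where chance sets apart about 5%. Sdhd was 4.02 in Elektra replicate 2 against 4.67 to 4.78 in the other Elektra arrays. Cox4i2 was 2.79 in Elektra replicate 1 against 2.28 to 2.33, and Atp5j2 was 2.05 in Elektra replicate 4 against 1.87 to 1.90. Uqcr11 was 4.80 in wild type replicate 3 against 4.44 to 4.49 in the other controls, and Uqcrh was 4.71 in wild type replicate 2 against 4.34 to 4.39. Creb1, of the regulator list, was 7.03 in wild type replicate 4 against 6.46 to 6.53. The median deviation of the mitochondrially encoded members was 0.0835 in Elektra replicate 3 against -0.0781 to -0.0701 in the other Elektra arrays.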

How the results depend on the processing

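In limma, 0 members and 0 genes were called at an adjusted p of 0.05 under all 17 alternatives, and 0 at 0.10 in the reported fit (without wild type replicate 4 the lowest adjusted p of any gene was 0.0882); at an unadjusted p under 0.05 the reported fit had 1702 genes. The median nuclear change lay between 0.0071 (median centring) and 0.1082 (without Elektra replicate 2), and the nuclear members above 0 between 25 and 35. With median centring the median over all genes was -0.0273. The mitochondrially encoded median lay between -0.1267 and -0.0426, with 4 of 4 below 0. Between genotypes, the deviations of samples with the same number correlated at 0.1346, 0.0106, 0.1341 and 0.0550. Not every sample correlated best with its own number. Across genotypes, replicates 1 and 2 correlated at 0.0106 to 0.1346 and replicates 3 and 4 at 0.038 to 0.1423. Between these 2 sets of replicates the correlations were -0.1854 to -0.0177. What lies behind this pattern was not tested. The replicate block could not move the log2 changes, because each number held 1 array of each genotype. The medians therefore stayed at 0.0476 and -0.0715, with 29 nuclear members above 0. With the block 0 genes were called and 1880 had an unadjusted p under 0.05. The lowest adjusted p in limma was then 0.3077, against 0.8838 in the reported fit. Of the named members' log2 changes 50 of 643 turned in sign, and 1 of 340 of the other named genes'. None was called and the causes were not tested. These totals include settings that cannot move a log2 change: the filter on dim genes, the trended robust prior and the replicate block. For genes with 1 probe set they also include the settings with other probe sets. Turned with median centring were Sdha -0.0223, Cox6b1 -0.0006536, Cox8c -0.0215. Turned with array weights were Sdhd 0.0411, Cox6b2 0.0774, Cox7b 0.2077, Atp5g2 0.0135, Atp5g3 0.0082. Turned with quantile normalization were Uqcrh 0.0127, Cox6b2 0.0480, Cox7a2l 0.0099, Cox8c -0.0261, Atp5g2 0.0330, Atp5g3 0.0612, Atp5sl 0.0350. Turned with the series value table were Cox6b2 0.0012, Cox7b 0.0020. On leaving out each array the ranges of those that turned were Sdha -0.1051 to 0.1176, Sdhb -0.0068 to 0.1493, Sdhd -0.1486 to 0.1077, Uqcrb -0.1518 to 0.0081, Uqcrh -0.0811 to 0.0395, Atp5l -0.0587 to 0.0287, Cox6b1 -0.0071 to 0.1036, Cox6b2 -0.0914 to 0.1509, Cox7a1 -0.0784 to 0.0428, Cox7b -0.2131 to 0.4216, Cox8c -0.0413 to 0.0698, Atp5g1 -0.1873 to 0.1314, Atp5g2 -0.0513 to 0.0391, Atp5g3 -0.0463 to 0.0418, Cycs -0.3588 to 0.0806, Atp5sl -0.0992 to 0.0240. Dim genes are limited by signal near the floor of the arrays.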
